A study of Mus musculus with 56 samples.

Results

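The genes described here are the chromatin remodelers and histone modifiers of the Hdac, Smarc, Kdm, Setd and Chd families in the blood of mice that carried the internal emitter 90Sr. They were taken by symbol alone: every gene whose array name begins with Hdac, Smarc, Kdm, Setd or Chd followed by a letter or digit, with the choline enzyme Chdh left out. Where the array holds several probes of a gene, the brightest was used. The rule gave 63 of the 30199 genes on the array, with 99 probes. Of these, 53 genes passed the detection filter and were tested among 18770 genes: 8 of 11 Hdac genes, 11 of 14 Smarc genes, 15 of 17 Kdm genes, 11 of 11 Setd genes and 8 of 10 Chd genes. The 10 members that did not pass were Chd1, Chd5, Hdac2, Hdac8, Hdac11, Kdm4d, Kdm5d, Smarca1, Smarcad1 and Smarcd3, and counts below are of the 53 detected members. The mice were C57BL/6, about 10 to 12 weeks old when received, and the irradiated mice had been given 200 kBq of 90Sr chloride through the tail vein. Whole blood was taken from separate animals 4 days after injection and again at days 7, 9, 25 and 30, each day with a control group of its own, and RNA of 1 mouse went on 1 one-color array. Both groups of day 4 had 4 mice and all later ones 6, which makes 56. Since every irradiated mouse got the same activity, the accrued radiation dose rose with the day. Day and accrued dose therefore cannot be told apart. The labels give neither the sex of the mice nor what the control mice were injected with, and all groups share strain and tissue.

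DNA in the nucleus is wound on histones, and the enzymes of these families set how tightly it is packed and which marks the histones carry. Histone deacetylases (Hdac) remove acetyl groups and mostly act in repressor complexes, lysine demethylases (Kdm) remove methyl groups, and SET domain proteins (Setd) include the enzymes that add them. Smarc genes encode the ATPases and subunits of SWI/SNF and ISWI remodelers and Chd genes the chromodomain ATPases, which slide or evict nucleosomes, and several of these genes are needed for the development of lymphocytes and other blood cells.

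The promoters of 4 members are printed because the results below turn on them: Smarca4 and Smarcb1, subunits of 1 remodeling complex that were lower at all 5 days, Smarcc1, a subunit of the same complex that was not, and Hdac9, the member that was higher at 3 days. Each is the RefSeq window on GRCm38.p6 from 250 bases before to 50 bases after the start of the gene, written 5' to 3' on the strand of the gene. Capitals mark the GC box letters GGGCGGG on either strand in the first 3 and the TATA box letters TATAAA in Hdac9.
Smarca4, plus strand, chr9:21615919-21616218: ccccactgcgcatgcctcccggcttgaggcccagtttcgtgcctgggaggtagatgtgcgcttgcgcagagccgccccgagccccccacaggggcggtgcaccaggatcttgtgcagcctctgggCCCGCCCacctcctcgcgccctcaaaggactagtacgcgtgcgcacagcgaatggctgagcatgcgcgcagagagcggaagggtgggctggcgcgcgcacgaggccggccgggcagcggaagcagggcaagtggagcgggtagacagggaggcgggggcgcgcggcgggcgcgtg
Smarcb1, minus strand, chr10:75921565-75921864: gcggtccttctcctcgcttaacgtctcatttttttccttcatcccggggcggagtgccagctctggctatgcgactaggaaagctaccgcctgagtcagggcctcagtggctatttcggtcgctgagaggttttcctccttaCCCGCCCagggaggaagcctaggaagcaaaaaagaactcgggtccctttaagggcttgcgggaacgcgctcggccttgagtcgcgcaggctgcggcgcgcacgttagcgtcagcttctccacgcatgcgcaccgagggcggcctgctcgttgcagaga
Smarcc1, plus strand, chr9:110131774-110132073: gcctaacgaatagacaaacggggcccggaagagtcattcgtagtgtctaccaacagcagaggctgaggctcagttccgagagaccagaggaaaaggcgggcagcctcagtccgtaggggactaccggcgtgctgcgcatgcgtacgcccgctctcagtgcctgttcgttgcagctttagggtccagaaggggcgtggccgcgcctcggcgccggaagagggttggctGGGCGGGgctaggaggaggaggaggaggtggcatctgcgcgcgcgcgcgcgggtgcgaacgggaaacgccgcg
Hdac9, minus strand, chr12:34917046-34917345: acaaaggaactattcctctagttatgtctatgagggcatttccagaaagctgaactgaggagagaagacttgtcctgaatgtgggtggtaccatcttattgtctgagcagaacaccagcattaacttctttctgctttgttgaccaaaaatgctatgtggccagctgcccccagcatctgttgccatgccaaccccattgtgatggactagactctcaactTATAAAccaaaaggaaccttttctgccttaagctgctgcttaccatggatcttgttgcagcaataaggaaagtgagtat
The GC box match begins at position -125 relative to the start in Smarca4, -108 in Smarcb1 and -23 in Smarcc1, and the TATA box match at -29 in Hdac9. The Smarca4, Smarcb1 and Smarcc1 windows hold 33, 27 and 33 CpG dinucleotides and the Hdac9 window holds 0. The table lists 2 windows for Hdac9, and the first is shown. These are matches of letters, and no binding was measured.

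The same windows were found for 38 of the 53 detected members, among 27025 genes with a window (8 members have several, of which the first was used). GGGCGGG, searched on both strands, was present in 21 of the 38 (55.3%) and in 25.8% of all windows. TATAAA was present in 2 of the 38 (5.26%), Hdac9 and Smarcd2, and in 14.2% of all windows. The shares for the ETS letters CCGGAAG were 15.8% and 9.12%, those for CCAAT 42.1% and 37.9%, and those for the E-box letters CACGTG 5.26% and 7.24%. None of these 5 motifs contains another. The median number of CpG dinucleotides was 24 in the members' windows (range 0 to 48) and 7 in all windows, and Hdac9 and Kdm4c were the 2 members with none. The set of all windows was not limited to genes detected here. The part of base composition in the motif shares was not tested.

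The number of non-control probes well above background ran from 17809 to 24698 in arrays of control mice (median 21049) and from 14389 to 22524 in those of irradiated mice (median 17863). At days 7, 9, 25 and 30 each day was run on 3 slides, of which 1 held 2 control and 2 irradiated mice, and at day 4 each group had a slide of its own, so that slide and treatment cannot be told apart there. All 18 B cell markers examined were detected and 16, 16, 15, 16 and 16 of them were lower in the irradiated mice at the 5 days in order. Their summed level (log2 of the sum of signals, on the scale of the array median) did not overlap between the groups at any day, with 10.62 to 11.14 in the controls and 8.31 to 9.08 in the irradiated mice at day 4 and 10.07 to 11.27 and 7.93 to 9.01 at day 30. Of 20 T cell markers between 1 and 4 were lower at any day and 1 higher at day 30, of 10 detected monocyte markers between 4 and 6, and of 14 neutrophil markers between 0 and 2. Of 13 detected erythroid markers 0, 2, 9, 0 and 8 were higher, with a summed level of 15.15 to 15.42 in the controls and 15.68 to 15.99 in the irradiated mice at day 4 and 14.83 to 15.77 and 15.91 to 16.47 at day 30. Of 12 platelet markers 1 was higher at day 30, and of 8 NK cell markers 1 was lower at day 9. By the same rule for a call, given below, 17.4%, 12.1%, 13.7%, 19.8% and 16.2% of all genes were lower at the 5 days. The shares of all genes higher were 2.14%, 2.59%, 4.41%, 5.69% and 15.6%. The T cell, neutrophil, NK cell and platelet counts were near or below these shares. In bulk blood, fewer cells of a type and less RNA per cell cannot be told apart, and the part of these cell types in the results below was not tested. The study's methods report manual cell counts of blood smears, with no significant difference between control and irradiated mice at any time.

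The first question was which of these genes differed between control and irradiated mice at each day. Levels are log2 signals relative to the median of the 43020 non-control spots of the same array. A gene was called lower or higher where limma gave an unadjusted p under 0.001 and the groups differed 2-fold or more. These 2 cutoffs are those of the study's methods, which used a random-variance t-test and also filtered genes on variation. At day 4, 28 of the 53 members were lower in the irradiated mice, a share of 52.8%, where 17.4% of all genes tested were lower. At day 7 the number was 18 (12.1% of all genes), at day 9 it was 17 (13.7%), at day 25 it was 26 (19.8%) and at day 30 it was 23 (16.2%). Every called member had a Benjamini-Hochberg adjusted p of at most 0.00438 over all genes.

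Few members were higher. The 5 days had 1, 1, 0, 0 and 2 of them (2.14%, 2.59%, 4.41%, 5.69% and 15.6% of all genes), and these were Hdac9 at days 4, 7 and 30 and Smarcc1 at day 30. With an adjusted p under 0.05 and no minimum fold change the members lower numbered 40, 36, 30, 39 and 37 at the 5 days in order (33.7%, 33.6%, 27.4%, 38.3% and 29.8% of all genes) and those higher 2, 2, 1, 2 and 7 (20.4%, 24.1%, 15.2%, 25.8% and 34.4%). The median log2 change of the members was -1.06, -0.90, -0.76, -1.06 and -0.99, and that of all genes -0.01, 0.00, -0.08, -0.10 and 0.12. Of the 53 members 47, 44, 43, 44 and 46 lay below the median gene.

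**Figure D1:**
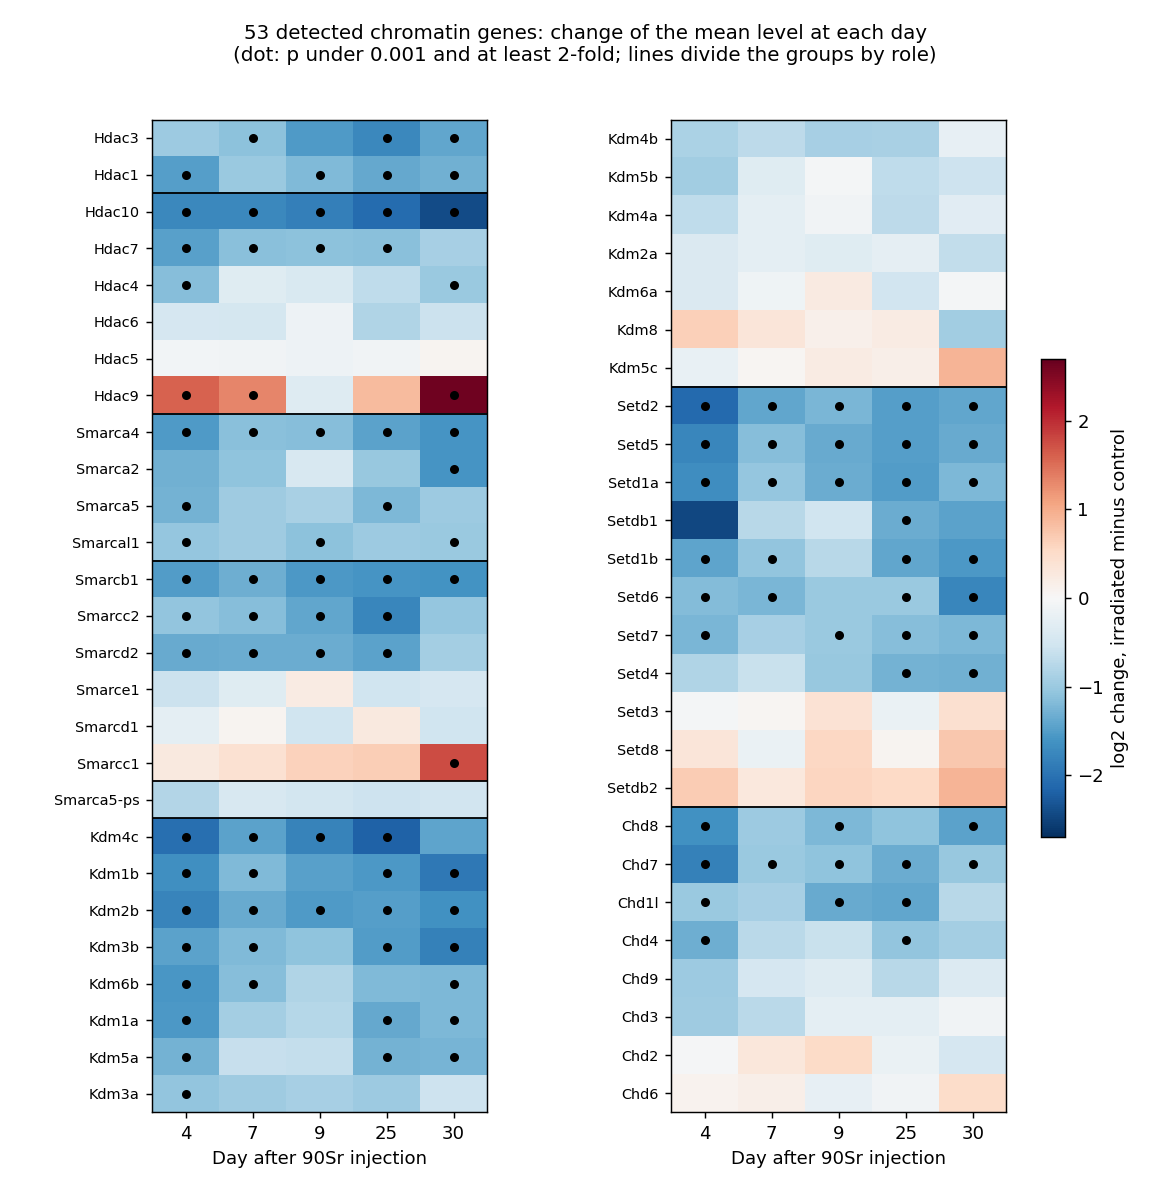
Log2 change (irradiated minus control, color) of the 53 detected members at each day (columns), grouped by role, with a dot where the gene passed the threshold. Of the members 28, 18, 17, 26 and 23 have a dot for lower at the 5 days in order, and Hdac9 and Smarcc1 have the only dots for higher.

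Over the 5 days, 32 members were lower at 1 or more days (26% of all genes) and 2 were higher (22.4%). Lower at all 5 days were 8 members, 15.1% of those tested, where 6.33% of all genes were lower at all 5 days. They were the deacetylase Hdac10, the SWI/SNF genes Smarca4 and Smarcb1, the demethylase Kdm2b, the methyltransferase family genes Setd1a, Setd2 and Setd5 and the remodeler Chd7. A further 10 members were lower at 4 days, 7 at 3 days, 4 at 2 days and 3 at 1 day. The 19 members called at no day were Hdac5, Hdac6, Smarca5-ps, Smarcd1, Smarce1, Kdm2a, Kdm4a, Kdm4b, Kdm5b, Kdm5c, Kdm6a, Kdm8, Setd3, Setd8, Setdb2, Chd2, Chd3, Chd6 and Chd9. Without irradiated mouse 6 of day 7 the number lower at day 7 was 10 and the number lower at all 5 days was 4, and without irradiated mouse 5 of that day the latter was 5. With the mean of a gene's detected probes 8 members were again lower at all 5 days, 6 of them shared, with Setd1b and Hdac1 in place of Smarca4 and Kdm2b.

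The groups were also compared without a threshold. Every irradiated mouse lay below every control mouse of its day for 38, 27, 21, 33 and 23 members (32.3%, 23.7%, 18.5%, 27.6% and 13.4% of all genes). Every irradiated mouse lay above every control mouse for 2, 1, 0, 0 and 2 members (18.2%, 8.47%, 5.24%, 7.80% and 15.1% of all genes).

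Fewer members were called lower under the other 2 scalings tried. With each array set to its 75th percentile in place of its median, the median change of all genes moved to 0.47, 0.35, 0.31, 0.38 and 0.31 on the log2 scale at the 5 days, and 13, 4, 4, 8 and 19 members were lower (5.87%, 3.49%, 4.72%, 5.46% and 12.1% of all genes) and 2, 1, 0, 1 and 3 higher (13.8%, 10.9%, 12.2%, 21.5% and 20.5%). The members' own median change was -0.58, -0.55, -0.37, -0.58 and -0.80. With quantile normalization 15, 5, 10, 10 and 19 members were lower (8.84%, 4.97%, 7.83%, 7.96% and 15.4% of all genes) and 1, 1, 0, 0 and 1 higher (4.89%, 4.48%, 4.71%, 9.83% and 13.1%). Hdac10 was the 1 member lower at all 5 days under each of these 2 scalings, and also the 1 of the 8 that a stricter filter on dim spots removed, which left 7. The processed log2 values the authors deposited differ in more than scaling, since they hold fewer probes and list 50 of the members, 34 of them by the same probe, and there 31, 21, 19, 27 and 31 were lower (25.5%, 18.8%, 21.8%, 24.3% and 31.3% of the genes in that table).

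**Figure D2:**
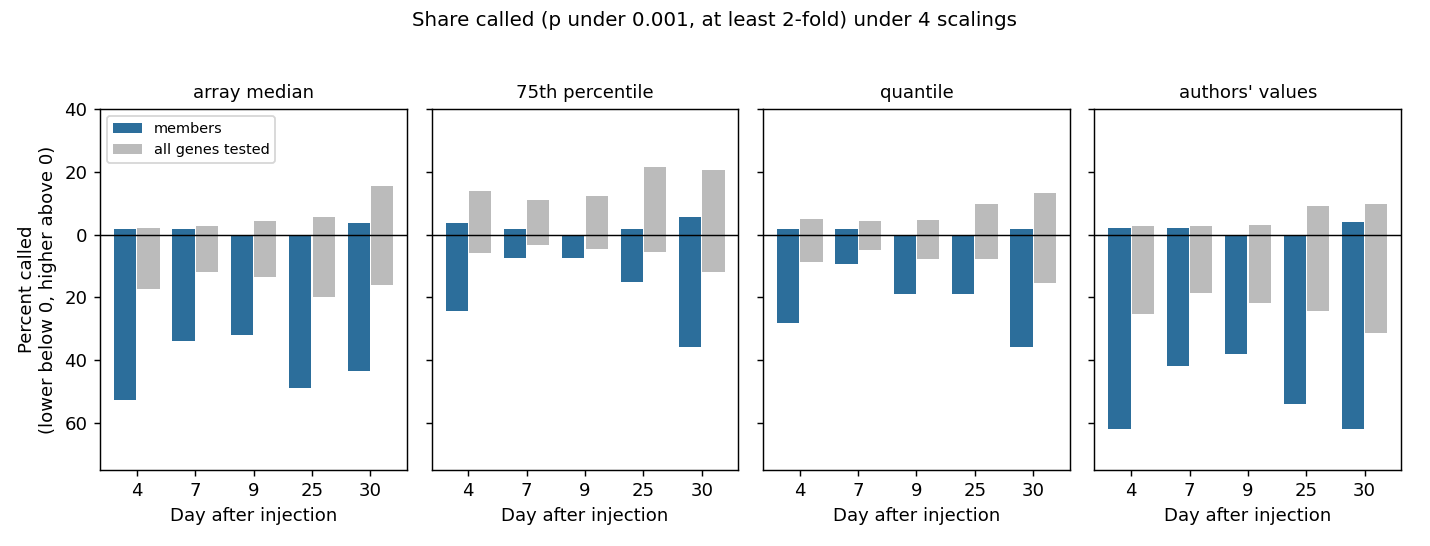
Percent called lower (drawn below 0) and higher (above 0) among the members (blue) and all genes tested (gray) at each day, under the array median, the 75th percentile, quantile normalization and the authors' values. The share of members lower exceeds that of all genes at each day in each panel, for example 28 of 53 members against 17.4% of all genes at day 4 with the array median and 13 of 53 against 5.87% with the 75th percentile.

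On the slides that held both groups, 47, 46, 51 and 45 of the 53 members were lower in the 2 irradiated than in the 2 control mice at days 7, 9, 25 and 30, with a median log2 change of -1.03, -0.90, -0.65 and -0.86. All of the 18, 17, 26 and 23 members called lower over all arrays of those days were below 0 there, and 17, 17, 6 and 19 of them by at least 2-fold. The arrays of these slides were among those that made the calls, so this is no independent check. The share of all genes below 0 on these slides was not counted. In the fit with slide as a block, given next, the median change of all genes was -0.05, -0.05, -0.24 and 0.12. With slide as a block in limma, 18, 4, 0 and 5 members were lower (9.74%, 4.34%, 0.432% and 1.44% of all genes) and 0 higher at each of those days, and with slide as a random block 19, 15, 21 and 22 were lower (12.1%, 12.7%, 16.6% and 15.6% of all genes) and 1, 0, 0 and 2 higher (2.54%, 3.57%, 3.72% and 14.5%). At days 7 and 30, 4 of the 6 irradiated arrays were scanned on a day with no control array. With scan day as a block 25 members were lower at day 7 (15.6% of all genes) and 11 at day 30 (5.13%), and 0 were higher at either (1.77% and 1.93%).

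Of the class I deacetylases, the catalytic subunits of the NuRD, Sin3, CoREST and NCoR corepressors, Hdac1 and Hdac3 were detected. Hdac1 was lower at 4 of the 5 days and Hdac3 at 3, and both had an adjusted p under 0.05 at every day. Hdac1 (brightest probe at chr4:129193374-129193433, minus strand, mm9) was at 6.41, 6.28, 6.58 and 6.10 in the 4 control mice and 5.22, 4.45, 4.95 and 4.78 in the 4 irradiated mice at day 4. At day 30 its levels were 5.44 to 6.63 (median 6.30) in the control mice and 4.54 to 5.15 (median 4.91) in the irradiated mice. No irradiated mouse reached the lowest control of its day. The log2 change (± SE) was -1.49 ± 0.19, -1.0 ± 0.19, -1.19 ± 0.21, -1.39 ± 0.23 and -1.30 ± 0.21, with an adjusted p of 0.000271, 0.000859, 0.000493, 0.000294 and 0.000174, and at day 7 the fold fell just short of the threshold. All 3 probes of Hdac1 were lower, with a mean change over the 5 days of -1.27, -1.36 and -1.24.

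Hdac3, the deacetylase of the NCoR corepressor, had log2 differences of -0.98 ± 0.21, -1.1 ± 0.20, -1.52 ± 0.38, -1.74 ± 0.40 and -1.41 ± 0.26, with an adjusted p of 0.0034, 0.000497, 0.00504, 0.00202 and 0.000379. Its levels at day 25 were 1.82 to 2.18 (median 1.98) in the control mice and -1.71 to 1.52 (median 0.28) in the irradiated mice, and the groups did not overlap. The control mice had Hdac3 well above background on every array, and the irradiated mice on 4 of 4, 2, 0, 3 and 1 of 6 arrays at the 5 days, so its changes rest on dim spots. The call at day 25 was lost when any of 9 of its 12 arrays was left out, and that at day 7 without irradiated mouse 5 (-0.98). Hdac2 was not detected.

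Of the 6 detected class II deacetylases, which shuttle between nucleus and cytoplasm or act on other proteins, 3, 2, 2, 2 and 2 were lower at the 5 days and 1, 1, 0, 0 and 1 higher. Of all genes 17.4%, 12.1%, 13.7%, 19.8% and 16.2% were lower and 2.14%, 2.59%, 4.41%, 5.69% and 15.6% higher. The 1 of 6 higher at day 30 is near the share of all genes. Hdac10 (chr15:88953840-88953899, minus strand, mm9), an enzyme that deacetylates polyamines, was lower at all 5 days, and its probe was dim in the irradiated mice, well above background on 3 of 4, 4 of 6, 1 of 6, 3 of 6 and 1 of 6 arrays and on every control array. Its level at day 4 was 2.82, 2.81, 3.21 and 3.20 in the 4 control mice and 1.53, 1.02, 1.64 and 0.86 in the 4 irradiated mice. At day 7 it was 3.11 to 3.52 (median 3.36) in the control mice and 0.63 to 2.68 (median 1.65) in the irradiated mice, and at day 9 it was 2.49 to 3.06 (median 2.73) in the control mice and 0.34 to 1.44 (median 0.94) in the irradiated mice. At every day all irradiated mice lay below all control mice. Levels were 2.97 to 3.46 (median 3.35) in the control mice and 0.25 to 1.78 (median 1.28) in the irradiated mice at day 25 and 2.88 to 3.46 (median 3.16) in the control mice and 0.42 to 1.71 (median 0.58) in the irradiated mice at day 30. The median of the irradiated mice was lowest at day 30. The log2 change was -1.75 ± 0.21, -1.75 ± 0.27, -1.85 ± 0.21, -2.08 ± 0.22 and -2.42 ± 0.22, with an adjusted p of 0.000227, 0.000244, 2.97e-05, 0.000126 and 1.79e-05, and its size at days 9 and 30 rests mostly on spots not well above background. Within the slides that held both groups the change was -2.14, -1.75, -1.56 and -1.87 at days 7, 9, 25 and 30, and with slide as a block the unadjusted p was 0.000454, 5.57e-05, 0.00109 and 5.87e-05. The other probe of Hdac10 had the same mean change of -1.97 over the days.

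Hdac7, a class IIa enzyme known for its part in developing lymphocytes, was lower at days 4 to 25, at log2 changes of -1.47 ± 0.14, -1.13 ± 0.15, -1.11 ± 0.22 and -1.13 ± 0.21, with an adjusted p of 0.000144, 0.000143, 0.000928 and 0.000465. At day 30 its change was -0.89 ± 0.28 (adjusted p = 0.0126) and the groups overlapped. The call at day 9 was lost without irradiated mouse 3 (-0.96) and that at day 25 without irradiated mouse 6 (-0.95), both by the fold alone. Hdac4, of the same class, was lower at days 4 and 30 (-1.15 ± 0.15 and -1.01 ± 0.24), while Hdac5 differed by between -0.13 and 0.08 at any day, with overlapping groups and no adjusted p under 0.436. The tubulin deacetylase Hdac6 had log2 differences of -0.45, -0.47, -0.14, -0.82 and -0.57.

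Hdac9 (chr12:34792084-34792143, minus strand, mm9), a class IIa deacetylase that binds MEF2 factors, was the 1 detected Hdac gene that rose. At day 4 its level was 0.53, 1.22, 1.27 and 0.16 in the 4 control mice and 2.16, 2.51, 2.47 and 2.43 in the 4 irradiated mice, and the groups did not overlap. At day 7 it was 0.92 to 2.03 (median 1.53) in the control mice and 1.94 to 3.39 (median 3.06) in the irradiated mice, and at day 30 it was -0.42 to 1.64 (median 1.26) in the control mice and 2.68 to 3.83 (median 3.77) in the irradiated mice. The lowest irradiated mouse of day 7 lay below the highest control, whereas at day 30 the groups were apart. The log2 change was 1.60 ± 0.25, 1.31 ± 0.26, -0.34 ± 0.31, 0.86 ± 0.32 and 2.62 ± 0.38, with an adjusted p of 0.000766, 0.00107, 0.413, 0.03 and 0.000115, so that the gene was 3.03-fold higher at day 4 and 6.14-fold higher at day 30. The change differed between days by limma's interaction test (adjusted p = 0.000361, and 0.0196 with slide as a random block), the smallest p of any member.

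The level of Hdac9 also differed between slides within a group. At day 9 the 4 control mice on a slide of their own were at 3.46 to 3.71 and the 2 on the shared slide at 1.94 to 2.24, where the 2 irradiated mice were at 2.41 to 3.09. Over all mice of day 9 the change was -0.34, and within the shared slide it was 0.66. At days 7, 25 and 30 the change within the shared slide was 0.73, 0.19 and 1.23, below that over all arrays on each of these days. At day 30 the controls were at -0.42 to 1.59 on their own slide and at 1.60 to 1.64 on the shared one, and the irradiated mice at 3.76 to 3.83 and at 2.68 to 3.02. With slide as a block the unadjusted p was 0.0363 at day 7 and 0.032 at day 30, above the threshold, and with scan day as a block the change was 0.57 and 1.99 and was not called at either day. Day 25 passed the threshold (1.13) when control mouse 6 was left out.

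**Figure D3:**
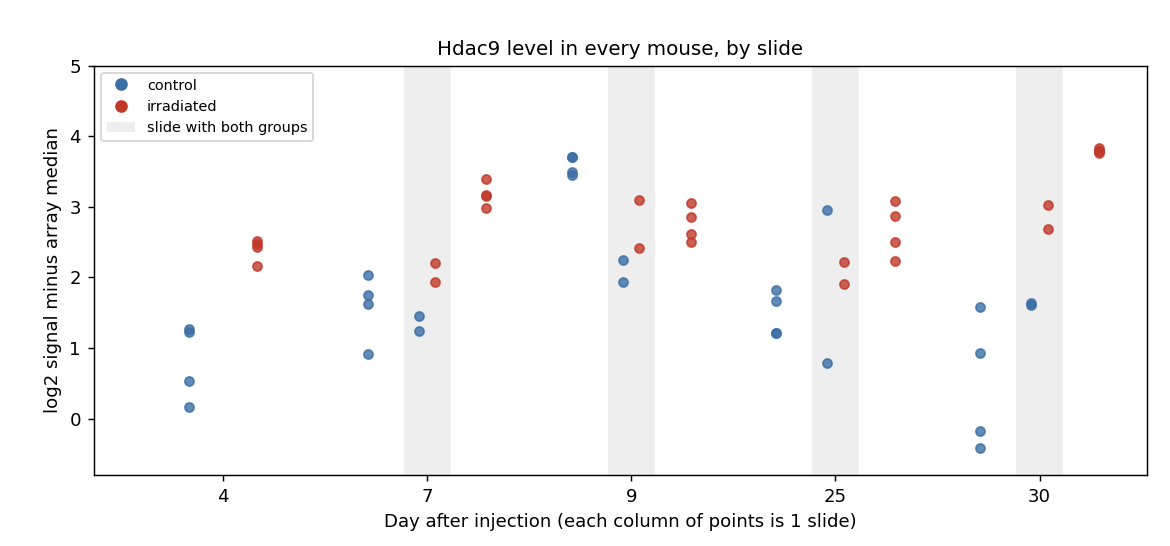
Hdac9 level (log2 signal minus array median, vertical axis) in every mouse, in columns of 1 slide each, by day and treatment, with the slides that held both groups shaded. At day 9 the controls on their own slide sit at 3.46 to 3.71 and those on the shared slide at 1.94 to 2.24.

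Of the 4 detected Smarc ATPases, 3, 1, 2, 2 and 3 were lower at the 5 days and none higher, with a median change of -1.28, -1.02, -0.99, -1.12 and -1.30. Beside these counts stand 17.4%, 12.1%, 13.7%, 19.8% and 16.2% of all genes lower and 2.14%, 2.59%, 4.41%, 5.69% and 15.6% higher. Smarca4 (chr9:21507751-21507810, plus strand, mm9), also called Brg1, is 1 of the alternative motors of SWI/SNF. Its day 4 level was 5.35, 5.32, 5.71 and 5.21 in the 4 control mice and 4.09, 3.81, 3.98 and 3.62 in the 4 irradiated mice. At day 9 it stood at 4.91 to 5.39 (median 5.14) in the control mice and 3.66 to 4.55 (median 3.85) in the irradiated mice, and at day 30 at 4.88 to 5.71 (median 5.52) in the control mice and 3.61 to 4.27 (median 3.79) in the irradiated mice. The groups did not overlap at any day. Its change was -1.53 ± 0.16, -1.12 ± 0.18, -1.16 ± 0.19, -1.44 ± 0.20 and -1.60 ± 0.18, with an adjusted p of 0.000161, 0.000259, 0.000273, 0.000155 and 4.2e-05. A much dimmer probe of Smarca4 had differences of 0.23, -0.47, 0.15, -0.13 and -0.83. Within the slides holding both groups it was -1.36, -1.03, -0.95 and -1.41, and with slide as a block the unadjusted p stayed under 0.001 at days 7 and 30 and was 0.00599 and 0.0125 at days 9 and 25. Without irradiated mouse 6 of day 7 the change of that day was -0.98, below 2-fold.

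Smarca5, the motor of the ISWI remodelers, was lower at days 4 and 25 (-1.27 ± 0.15 and -1.21 ± 0.20), with log2 differences of -0.96, -0.87 and -0.99 at the other days (adjusted p at most 0.0108). Smarca5-ps, a pseudogene whose probe may share sequence with it, was called at no day (-0.79, -0.43, -0.49, -0.56 and -0.51). Smarcal1, an annealing helicase that acts at stalled replication forks, was lower at days 4, 9 and 30, at log2 changes of -1.04, -1.11 and -1.01, each close to 2-fold, and the calls at days 4 and 30 were lost when any of 4 of 8 and 5 of 12 arrays were left out. Of its 2 other detected probes, 1 had differences of -1.27, -0.77, -1.01, -1.19 and -1.56, and the other went the opposite way, with 0.60, 0.53, 0.42, 0.00 and 1.03 (adjusted p, over all detected probes, of 0.00685, 0.00197, 0.111, 0.996 and 0.000374). Smarca2, or Brm, the other SWI/SNF motor, was lower at day 30 alone, where it was well above background in all 6 control mice and in 0 of the irradiated mice. The fold there was at least 1.93 (measured change -1.59 ± 0.25).

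Of the 6 detected Smarc core subunits, 3, 3, 3, 3 and 1 were lower and 0, 0, 0, 0 and 1 higher. The shares of all genes were 17.4%, 12.1%, 13.7%, 19.8% and 16.2% lower and 2.14%, 2.59%, 4.41%, 5.69% and 15.6% higher. At day 30 the 1 of 6 lower and the 1 of 6 higher are near these shares. Smarcb1 (chr10:75359522-75359581, minus strand, mm9), the Snf5 subunit lost in rhabdoid tumors, was at 4.12, 4.03, 4.45 and 4.13 in the 4 control mice and 2.65, 2.55, 2.81 and 2.69 in the 4 irradiated mice at day 4. Its levels at day 7 were 4.53 to 4.75 (median 4.61) in the control mice and 2.59 to 3.70 (median 3.36) in the irradiated mice, and at day 30 they were 3.70 to 4.91 (median 4.40) in the control mice and 2.43 to 2.95 (median 2.79) in the irradiated mice. Every irradiated mouse of every day was below every control. The change was -1.51 ± 0.13, -1.31 ± 0.16, -1.55 ± 0.22, -1.59 ± 0.20 and -1.62 ± 0.20, or between 2.47-fold and 3.07-fold lower, with an adjusted p of 0.00013, 0.000119, 0.000137, 0.000136 and 6.46e-05, and no array left out changed a call. Within the shared slides the change was -1.53, -1.44, -1.04 and -1.38, and with slide as a block the unadjusted p was 0.000119, 0.00313, 0.00488 and 0.0022.

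Smarcd2, a Baf60 subunit needed for the maturation of granulocytes, was lower at days 4 to 25, at log2 changes of -1.37, -1.33, -1.33 and -1.44 (adjusted p = 0.000334, 0.000142, 0.00179 and 0.000134), and overlapped at day 30 (-0.92). The call at day 9 was lost without irradiated mouse 1 (unadjusted limma p over all genes 0.00121). Smarcc2, the Baf170 scaffold, was lower at the same 4 days, at log2 changes of -1.06, -1.14, -1.41 and -1.77, but in the irradiated mice its probe was well above background on 1 of 4 arrays at day 4 and on 0 of 6 at every later day. The fold was at least 1.29 at day 25, and no bound above 1 could be given at days 7 and 9. Leaving out any of 10 of 12 arrays lost the call at day 7, and any of 4 of 8 that at day 4.

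Smarcc1, the Baf155 scaffold of the same complex, was higher at day 30. Its brightest probe (chr9:110140717-110140776, plus strand, mm9) was at 10.15, 10.47, 9.77 and 10.21 in the 4 control mice and 10.81, 10.56, 10.58 and 9.69 in the 4 irradiated mice at day 4, where the groups overlapped. At day 30 it was at 8.57 to 10.00 (median 8.98) in the control mice and 9.35 to 11.65 (median 11.22) in the irradiated mice, and the lowest irradiated mouse lay below the highest control. The change was 0.26 ± 0.25, 0.42 ± 0.23, 0.62 ± 0.43, 0.66 ± 0.34 and 1.76 ± 0.38, with an adjusted p of 0.397, 0.123, 0.27, 0.0967 and 0.00107, so that the gene was 3.39-fold higher at day 30 and called at no other day. The call was lost without control mouse 4 (1.66), irradiated mouse 4 (1.63) or irradiated mouse 6 (1.65). Within the shared slides the change was -0.18, 0.90, -0.31 and 0.53 at days 7, 9, 25 and 30, and with scan day as a block it was 1.1 at day 30 and was not called. Of its 4 detected probes another was also higher at day 30 (1.45, adjusted p = 0.000199), and the remaining ones differed by 0.52 and -0.29 there (adjusted p = 0.0685 and 0.447, over all detected probes).

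**Figure D4:**
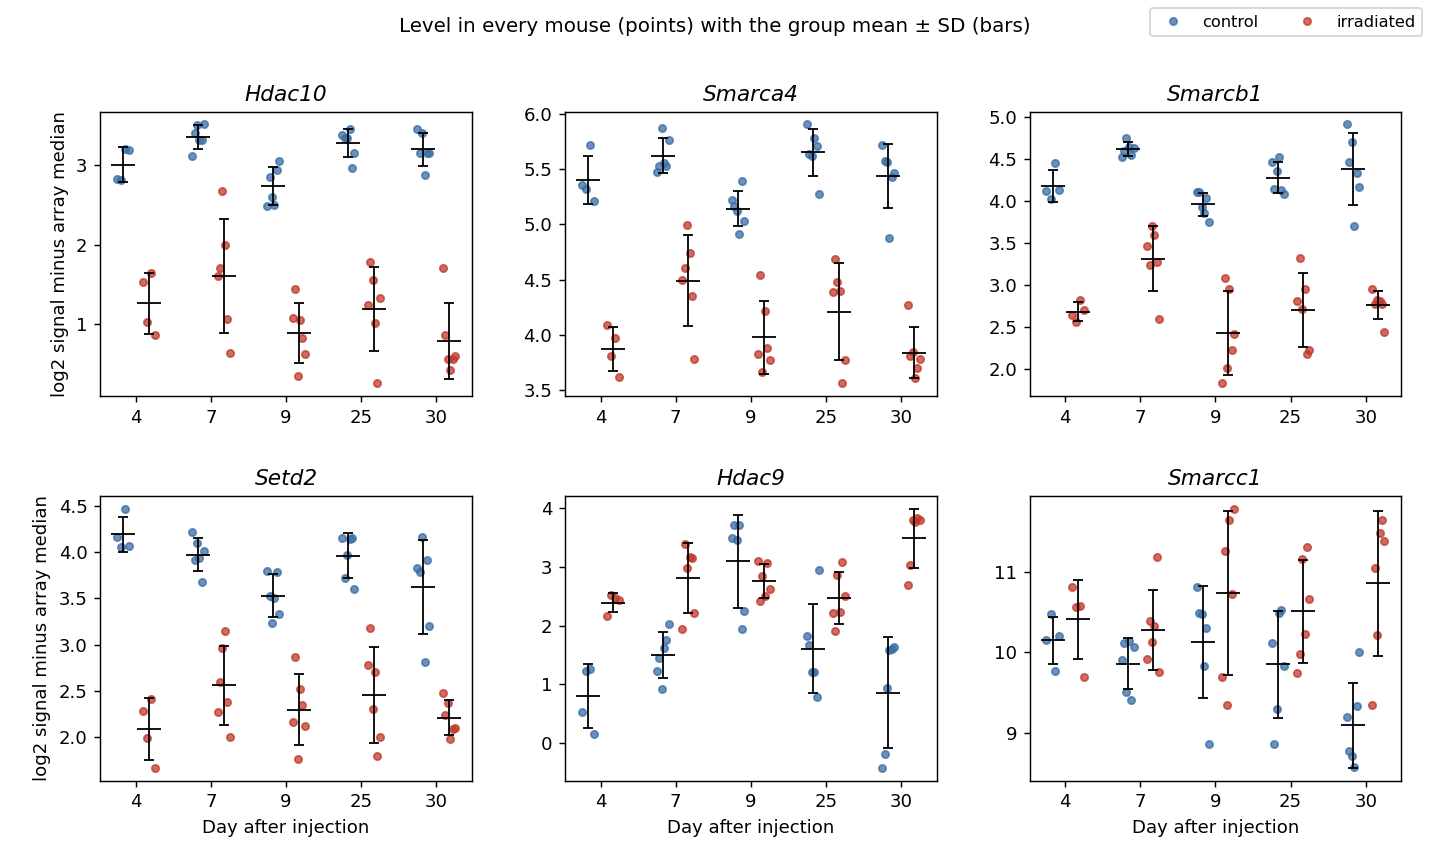
Level (log2 signal minus array median) of Hdac10, Smarca4, Smarcb1, Setd2, Hdac9 and Smarcc1 in every control (blue) and irradiated (red) mouse at each day, with bars for the group mean ± SD. In Hdac10, Smarca4, Smarcb1 and Setd2 the irradiated mice lie below the controls of their day at all 5 days, Hdac9 reaches 3.83 in the irradiated mice of day 30, and Smarcc1 overlaps at every day.

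Of the 15 detected lysine demethylases, 8, 5, 2, 6 and 6 were lower at the 5 days and none higher, with a median change of -1.06, -0.71, -0.76, -0.99 and -0.93. Beside these stand 17.4%, 12.1%, 13.7%, 19.8% and 16.2% of all genes lower, so that 2 of 15 at day 9 is near the share of all genes. The shares of all genes higher were 2.14%, 2.59%, 4.41%, 5.69% and 15.6%. Lower demethylases are named next. The amine oxidases Kdm1a and Kdm1b, which remove methyl groups from H3K4, were among the demethylases called lower, as were Kdm2b, Kdm3a, Kdm3b, Kdm4c, Kdm5a and Kdm6b. Kdm2b (chr5:123320688-123320747, minus strand, mm9) demethylates H3K36 and brings a Polycomb complex to CpG islands. Its level was 3.87, 3.92, 4.11 and 3.56 in the 4 control mice and 2.31, 1.80, 2.4 and 1.80 in the 4 irradiated mice at day 4. At day 25 it was 3.74 to 4.55 (median 4.09) in the control mice and 1.63 to 3.57 (median 2.66) in the irradiated mice, and at day 30 it was 2.82 to 4.12 (median 3.87) in the control mice and 1.79 to 2.31 (median 2.12) in the irradiated mice. The groups were apart at all 5 days. The change was -1.78 ± 0.19, -1.37 ± 0.20, -1.53 ± 0.22, -1.49 ± 0.29 and -1.63 ± 0.22, with an adjusted p of 0.000171, 0.000205, 0.000134, 0.000752 and 7.56e-05, and within the shared slides it was -1.91, -1.33, -0.63 and -1.87. The 2 other detected probes of Kdm2b, both dimmer, had differences of 0.40, 0.51, -1.33, 0.06 and 0.47 and of -1.30, -1.04, -1.09, -0.64 and -0.46, so that 1 of them was opposite in sign at 4 of the 5 days.

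Kdm4c, which acts on H3K9 and H3K36, was lower at days 4 to 25, at log2 changes of -2.04 ± 0.21, -1.44 ± 0.25, -1.80 ± 0.27 and -2.19 ± 0.35, with an adjusted p of 0.000152, 0.000417, 0.000185 and 0.000236. At day 4 it was at 1.79, 1.71, 2.12 and 1.68 in the 4 control mice and -0.16, 0.01, 0.08 and -0.78 in the 4 irradiated mice. The irradiated mice had it well above background on 1 of 4 arrays at day 4 and on 2, 0, 1 and 1 of 6 at the later days, and at day 9 the fold was at least 1.55. Kdm1b was lower at days 4, 7, 25 and 30, at log2 changes of -1.66, -1.20, -1.54 and -1.94, and its call at day 7 was lost when any of 9 of 12 arrays was left out. Kdm1a, or Lsd1, a partner of Hdac1 in CoREST, was lower at days 4, 25 and 30, at log2 changes of -1.55 ± 0.18, -1.39 ± 0.27 and -1.21 ± 0.24 (adjusted p = 0.000238, 0.000663 and 0.000652), and its changes of -0.92 and -0.76 at days 7 and 9 had an adjusted p of 0.00126 and 0.0145.

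The H3K27 demethylases Kdm6a and Kdm6b differed in their calls. Kdm6b was lower at days 4, 7 and 30, at log2 changes of -1.57 ± 0.23, -1.14 ± 0.25 and -1.21 ± 0.28, and at day 25 all irradiated mice lay below all controls at a change of -1.19 that did not pass (adjusted p = 0.00706). The calls at days 7 and 30 were lost when any of 7 and 8 of 12 arrays were left out. Kdm6a, encoded on the X chromosome, had log2 differences of -0.38, -0.11, 0.24, -0.52 and -0.06, with overlapping groups and no adjusted p under 0.0675. The difference between the 2 genes was not tested.

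Kdm5c, an X-linked H3K4 demethylase, had a change that differed between days (interaction adjusted p = 0.00433, and 0.0497 with slide as a random block). At day 4 it was at 5.86, 5.94, 5.84 and 6.16 in the 4 control mice and 5.78, 5.85, 5.66 and 5.76 in the 4 irradiated mice, and at day 30 at 5.15 to 5.69 (median 5.37) in the control mice and 5.68 to 6.62 (median 6.37) in the irradiated mice. The groups overlapped at both days. Its change was -0.19 ± 0.12, 0.05 ± 0.11, 0.22 ± 0.22, 0.15 ± 0.17 and 0.91 ± 0.19, and at day 30 the p passed but the fold was 1.88. Without irradiated mouse 1 of day 30, and also with the 75th percentile scaling, the fold passed as well (1.04 and 1.1 on the log2 scale), while the interaction p was 0.0536 with that scaling. The other probe of Kdm5c had differences of 0.37, 0.90, -0.05, 0.74 and 1.41. Its Y-linked paralog Kdm5d was well above background on 0 of the 56 arrays, where probes of the Y-linked genes Ddx3y and Eif2s3y were well above background on 55 each and that of Uty on 2. The probe of the X-linked gene Xist was well above background on no array of any group.

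Of the 11 detected Setd genes, 6, 5, 4, 8 and 7 were lower and none higher, with a median change of -1.24, -0.90, -1.0, -1.28 and -1.29, the lowest median of the Kdm, Setd and Chd groups at every day. The class I Hdac median was lower still at days 7 to 30 (-1.05, -1.35, -1.56 and -1.35) but not at day 4. That of the Smarc ATPases was lower at days 4, 7 and 30 (-1.28, -1.02 and -1.30) but not at days 9 and 25. Among all genes 17.4%, 12.1%, 13.7%, 19.8% and 16.2% were lower and 2.14%, 2.59%, 4.41%, 5.69% and 15.6% higher. Setd2 (chr9:110520924-110520983, plus strand, mm9) trimethylates H3K36 on transcribed genes. At day 4 it was at 4.17, 4.05, 4.46 and 4.06 in the 4 control mice and 2.29, 1.99, 2.42 and 1.67 in the 4 irradiated mice. At day 7 the levels were 3.68 to 4.22 (median 3.97) in the control mice and 2.0 to 3.15 (median 2.49) in the irradiated mice, and at day 30 2.81 to 4.16 (median 3.81) in the control mice and 1.99 to 2.48 (median 2.17) in the irradiated mice. The groups did not overlap at any of the 5 days. Its change was -2.10 ± 0.19, -1.41 ± 0.19, -1.23 ± 0.20, -1.49 ± 0.23 and -1.41 ± 0.23, with an adjusted p of 0.00013, 0.00013, 0.000304, 0.000199 and 0.00018, and it was 4.27-fold lower at day 4. Within the shared slides the change was -1.93, -1.04, -0.89 and -1.20, and with slide as a block the unadjusted p was 1.42e-05, 0.00982, 0.0178 and 0.0106.

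Setd5 (chr6:113103335-113103394, plus strand, mm9), a chromatin protein tied to development of the nervous system, had log2 differences of -1.76 ± 0.15, -1.15 ± 0.27, -1.36 ± 0.27, -1.49 ± 0.24 and -1.37 ± 0.21, with an adjusted p of 0.00013, 0.00259, 0.00113, 0.000258 and 0.000163 and no overlap between groups at any day. The call at day 7 was lost when any of 11 of the 12 arrays was left out. Setd1a (chr7:134943548-134943607, plus strand, mm9), the catalytic subunit of an H3K4 methyltransferase complex, had log2 differences of -1.68 ± 0.17, -1.04 ± 0.16, -1.35 ± 0.20, -1.5 ± 0.26 and -1.22 ± 0.21, with an adjusted p of 0.00015, 0.000251, 0.000138, 0.000399 and 0.000264. At day 4 it stood at 3.32, 3.18, 3.71 and 3.04 in the 4 control mice and 1.82, 1.5, 1.70 and 1.51 in the 4 irradiated mice, and the groups were apart at every day. The call at day 7 was lost without irradiated mouse 5 (-0.95) or 6 (-0.99). Setd1b, the other catalytic subunit of that kind, was lower at 4 days, at log2 changes of -1.42, -1.06, -1.41 and -1.56.

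Setdb1, which methylates H3K9 at silenced retroelements, was dim. At day 4 it was at 2.83, 0.52, 0.82 and 0.63 in the 4 control mice and -1.26, -0.02, -2.0 and -1.74 in the 4 irradiated mice, with 1 control mouse far above the others, and a change of -2.45 ± 0.58 that did not pass (adjusted p = 0.00619). It was lower at day 25 (-1.35 ± 0.32), where the fold was at least 1.43 and the call was lost when any of 10 of 12 arrays was left out. Setd8, named Kmt5a in RefSeq, the H4K20 monomethylase of dividing cells, had log2 differences of 0.32 ± 0.19, -0.17 ± 0.14, 0.55 ± 0.18, 0.07 ± 0.17 and 0.73 ± 0.17, and its change differed between days (interaction adjusted p = 0.00594, and 0.0442 with slide as a random block). At day 9 it was at 3.88 to 4.28 (median 4.13) in the control mice and 4.18 to 4.91 (median 4.77) in the irradiated mice, and at day 30 at 4.12 to 4.38 (median 4.26) in the control mice and 4.46 to 5.33 (median 5.09) in the irradiated mice. At day 30 every irradiated mouse was above every control, with an adjusted p of 0.00217 and a fold of 1.66, under the fold threshold. The other probe of Setd8 did not share this pattern over the days, with differences of 0.49, 0.48, 0.86, 0.68 and 0.10 (adjusted p = 0.714 at day 30 over all detected probes).

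Of the 8 detected Chd genes, 4, 1, 3, 3 and 2 were lower and none higher, with a median change of -1.0, -0.72, -0.48, -0.90 and -0.60. Of all genes 17.4%, 12.1%, 13.7%, 19.8% and 16.2% were lower and 2.14%, 2.59%, 4.41%, 5.69% and 15.6% higher. The 1 of 8 at day 7 and the 2 of 8 at day 30 are near the shares lower. Chd7 (chr4:8793852-8793911, plus strand, mm9), the remodeler mutated in CHARGE syndrome, was at 4.73, 4.49, 5.10 and 4.55 in the 4 control mice and 3.19, 3.03, 3.0 and 2.33 in the 4 irradiated mice at day 4. At day 30 it was at 3.88 to 5.05 (median 4.64) in the control mice and 3.48 to 3.71 (median 3.54) in the irradiated mice, and the groups were apart at all 5 days. Its change was -1.83 ± 0.21, -1.01 ± 0.18, -1.08 ± 0.26, -1.35 ± 0.25 and -1.02 ± 0.19, with an adjusted p of 0.000226, 0.000478, 0.00341, 0.000494 and 0.000419. The calls at days 7, 9 and 30 were close to the threshold and were lost when any of 6, 8 and 3 of 12 arrays were left out. Within the shared slides the change was -1.32, -1.01, -0.77 and -1.02.

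Chd8, a chromodomain remodeler whose loss is tied to autism, was lower at days 4, 9 and 30, at log2 changes of -1.64 ± 0.13, -1.21 ± 0.19 and -1.45 ± 0.18 (adjusted p = 0.00013, 0.000228 and 5.65e-05). Chd4, the NuRD motor that works with Hdac1, was at 5.75, 5.64, 6.16 and 5.93 in the 4 control mice and 4.58, 4.66, 4.59 and 4.42 in the 4 irradiated mice at day 4 and lower there and at day 25 (-1.31 ± 0.14 and -1.06 ± 0.15), and its changes of -0.72, -0.61 and -0.92 at the other days had an adjusted p of 0.000265, 0.0495 and 0.000499. The call at day 25 was lost without irradiated mouse 5 (-0.998). Chd1l, a remodeler recruited by poly(ADP-ribose) at DNA breaks, was lower at days 4, 9 and 25, at log2 changes of -1.01, -1.36 and -1.40, with a fold of at least 2.03 at day 9, and its call at day 4 was lost when any of 3 of 8 arrays was left out. Chd3, another NuRD motor, had log2 differences of -0.96, -0.72, -0.27, -0.27 and -0.09, by less at the later days, and its change differed between days (interaction adjusted p = 0.00794).

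In all, the change differed between days for 7 of the 53 members at an adjusted p under 0.05 (22.9% of all genes): Hdac9, Kdm5c, Setd8, Chd3, Smarce1, Kdm4b and Kdm5b. With slide as a random block 3 passed (5.58% of all genes), Hdac9, Kdm5c and Setd8. In the fit without a block, 12 in place of 7 passed when irradiated mouse 1 of day 9 was left out. None of the 8 members lower at all 5 days was among the 7, and their adjusted interaction p ranged from 0.243 (Setd2) to 0.879 (Kdm2b), which does not show that their change was the same at each day. Smarca4 passed with the 75th percentile scaling (adjusted p = 0.0459) and with quantile normalization (0.0404). The 5 control groups, which are separate mice and arrays, differed from each other in 27 members (56.4% of all genes) and in 15 with slide as a random block (32.3%). The means of the control groups spanned at least 2-fold in 5 of the 27 (24.3% of all genes): Hdac9 (2.29 on the log2 scale), Kdm8 (1.96), Chd2 (1.16), Hdac3 (1.13) and Kdm5a (1.11).

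Kdm8, a JmjC protein, varied widely among the control mice of days 4 and 30. Its control mice of day 30 were at 4.05 to 6.68 and those of day 25 at 2.98 to 3.72, with irradiated mice at 3.80 to 4.73 and 3.21 to 4.01. It was called at no day, with a change of 0.65, 0.32, 0.13, 0.22 and -0.93.

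Probes of 1 gene did not always move alike. Of 20 members with several detected probes, 6 had the same sign for all probes at every day, 14 had opposite signs at 1 or more days and 3 at all 5 days (Kdm4a, Kdm5b and Setdb2). For Setdb2, an H3K9 methyltransferase, the brightest probe (AK089197, chr14:60042140-60042199, minus strand, mm9) had differences of 0.69, 0.29, 0.57, 0.53 and 0.92 and was called at no day. The other (NM_001081024, chr14:60020951-60021010, minus strand) had differences of -1.93, -1.20, -1.62, -1.91 and -1.81, with an adjusted p, over all detected probes, of 0.000556, 0.0456, 0.00294, 0.000206 and 0.00012. For Kdm2a, an H3K36 demethylase, the brightest probe had differences of -0.40, -0.27, -0.32, -0.24 and -0.67 and the other by -1.96, -1.33, -1.5, -2.09 and -1.90, so that a gene counted here as not called had a probe with an adjusted p of at most 0.000928 at every day. Kdm5b had 1 probe at 1.19, 1.0, -1.0, 0.35 and 1.40, where its brightest was at -0.93, -0.32, -0.06, -0.68 and -0.56. With the mean of the detected probes in place of the brightest, 25, 16, 17, 25 and 22 members were lower at the 5 days (16.1%, 11.3%, 12.7%, 18.5% and 15.2% of all genes).

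**Figure D5:**
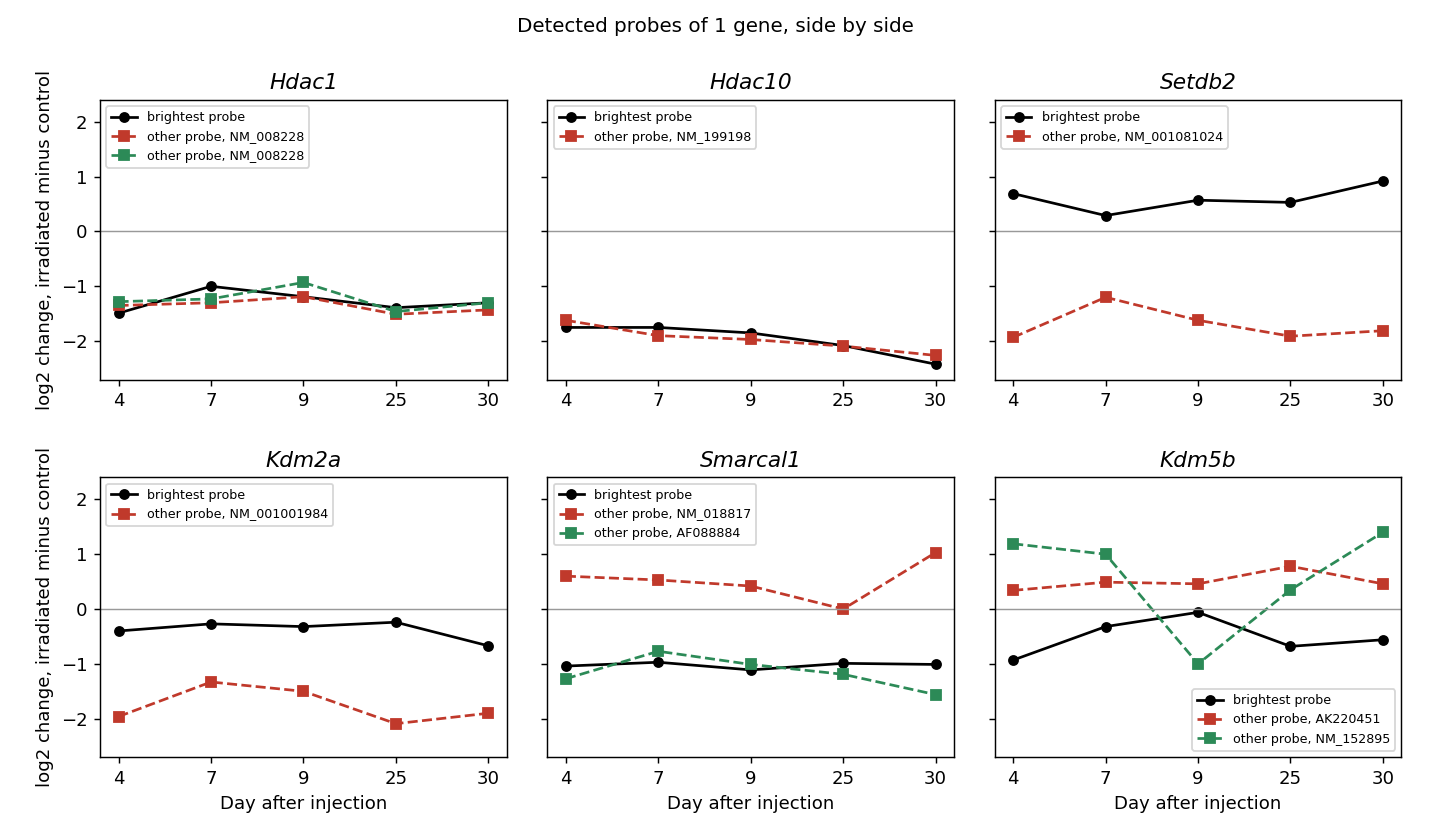
Log2 change at each day of every detected probe of Hdac1, Hdac10, Setdb2, Kdm2a, Smarcal1 and Kdm5b, with the brightest probe in black. The probes of Hdac1 and Hdac10 run together (mean change -1.27, -1.36 and -1.24, and -1.97 for both), and those of Setdb2 lie on opposite sides of 0 at all 5 days.

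The genes that work with these enzymes were taken from lists of the subunits and related enzymes, written without regard to how they moved but with earlier results of these data known. Of 131 genes listed 121 were on the array and 112 were detected, and 37, 16, 21, 36 and 32 of them were lower and 0, 2, 5, 3 and 12 higher at the 5 days, where 17.4%, 12.1%, 13.7%, 19.8% and 16.2% of all genes were lower and 2.14%, 2.59%, 4.41%, 5.69% and 15.6% higher. The partners' share lower was near that of all genes at day 7. Of 16 detected Polycomb genes 8, 3, 5, 8 and 5 were lower, of 17 SWI/SNF and INO80 partners 6, 2, 3, 6 and 4, and of 22 partners of the NuRD, Sin3, CoREST and NCoR corepressors 8, 4, 3, 7 and 8. Of 25 other histone methyltransferase genes 7, 4, 5, 8 and 9 were lower and 5 higher at day 30, of 13 acetyltransferases 4, 1, 2, 2 and 3 were lower, and of 7 sirtuins 1, 1, 1, 3 and 2. Of 8 DNA methylation genes 3, 1, 2, 2 and 1 were lower and 0, 2, 2, 1 and 2 higher, and of 4 other demethylases 0 were lower at any day and 1 higher at days 9 and 30 each. Higher calls in the remaining lists were 1 SWI/SNF or INO80 partner at days 9 and 25 each, 1 corepressor partner at day 9 and 2 at day 30, 1 sirtuin and 1 Polycomb gene at day 30 and 1 methyltransferase gene at day 25.

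The following partners are named after their values were seen. Among those lower at all 5 days were Ezh2, the Polycomb H3K27 methyltransferase (-1.22, -1.01, -1.08, -1.66 and -1.33), Sirt1, a nuclear sirtuin (-1.40, -1.09, -1.03, -1.40 and -1.46), and Tet2, which oxidizes methylcytosine (-2.82, -1.59, -1.71, -2.10 and -1.68). Arid1b, Mta2, Sin3a, Kat7, Mtf2, Wdr5 and Nsd1 were also lower at each day. Among the DNA methylation genes, on the scale of the array median, Uhrf1, which maintains methylation after replication, was higher at days 7, 9 and 30 (1.24, 1.96 and 1.12), the methyltransferase Dnmt3b at days 7, 25 and 30 (1.06, 1.13 and 1.72) and the maintenance methyltransferase Dnmt1 at day 9 (1.46).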

How the data were processed

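Blood RNA of 56 mice, with globin transcripts reduced, was labeled with Cy3 and hybridized to one-color Agilent mouse arrays (1 mouse per array). The authors deposited the scanner output of each array, whose intensity values (processed signal, mean signal and local background) come from Feature Extraction 11.5.1.1 per the file headers, with background subtracted and spatial trends removed in the processed signal (the submitters' processing notes name version 10.7). The headers place probes on mm9. The authors also deposited a table of log2 values that differ from the log2 processed signals by a constant within each array, used here as an alternative only. It lists 14162 non-control probes, and its array medians run from 4.32 to 5.09. The study's methods describe filters on background, non-uniform spots and variation, and whether these gave the listed probes was not tested. Other values deposited with each array were flags (score 0 or 1).

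The log2 processed signal had the median of the array's 43020 non-control spots subtracted. Non-uniform and population outlier spots were set to missing, spots of 1 probe were averaged, and the brightest probe stood for each of 30199 genes. Genes were tested where such flags or a signal not above background held on under 25% of arrays, which left 18770. Control and irradiated mice of each day were compared in limma 3.58.1 (R 4.3.3, statmod 1.5.0), with calls at an unadjusted p under 0.001 and at least 2-fold as in the study's methods and Benjamini-Hochberg adjusted p-values over all genes tested. Day by treatment interaction and differences among the 5 control groups were F-tests in 1 fit of all 10 groups at an adjusted p under 0.05. Unless said otherwise, p-values are limma's and two-sided. SE is the standard error of the fit. Where all arrays of a group were dimmer than well above background, a fold is a lower bound from the dimmest probe well above background on those arrays. Arrays give no counts, so precision is set by how many arrays each group has.

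Simulated data with 18770 genes, of which 100 were changed by 1.5 on the log2 scale, had 78% of these called at day 4 and between 88% and 92% at the later days, with 6 to 12 unchanged genes called at any day. A further 100 genes were changed by 2.5, with 93% called at day 4 and between 97% and 100% at the later days. The part of slide, scan day and scaling in these counts was not tested. The members, the lists of markers and partners and the rule for the genes described were chosen with earlier results of the mouse data known. The genes described are, by that rule, up to 3 members of each role group called with groups apart on the most days, the 3 with the smallest interaction p, those called higher, and a set of well known members. Hdac4, Hdac5, Hdac6, Smarca2, Smarca5-ps, Setd1b, Setdb2, Kdm2a, Kdm5b, Kdm8, Chd3 and the partners were added after their values were seen. Replicates are separate mice, and the labels do not say that their numbers pair the groups. Alternatives were the scaling, the background correction (normexp with offset 50), the filters, the probe choice, blocks for slide and scan day, the authors' values and each array left out. Leaving out arrays in the comparison of control groups was added after seeing the data.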

Additional observations from a re-analysis of the deposited data

Results flagged for a closer look

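In 18 of 280 gene and group combinations examined (28 detected named members in 10 groups) 1 mouse stood apart by Dixon's ratio, the gap to the nearest other mouse over the range of the group. Chance gives about 1 in 20 such groups. The mouse was the highest or lowest of its group in each case. At day 30, irradiated mouse 1 stood apart for Hdac10 (ratio 0.655, level 1.71), Smarca4 (0.648, level 4.27), Kdm5c (0.676, level 5.68) and Kdm6a (0.709, level 0.32). Control mouse 4 of the same day stood apart for Kdm2b (0.735, level 2.82), Smarca4 (0.661, level 4.88), Smarcc2 (0.788, level -1.18) and Smarcd2 (0.644, level 2.29), and irradiated mouse 6 for Smarcb1 (0.648, level 2.43). Irradiated mouse 6 of day 7 stood apart for Hdac1 (0.674, level 4.66) and Setd5 (0.691, level 2.07), control mouse 3 of that day for Chd4 (0.641, level 6.31) and control mouse 1 for Hdac3 (0.6253, level 0.75). The remaining ones were Hdac7 in irradiated mouse 3 of day 4 (0.864, level 2.62) and irradiated mouse 6 of day 25 (0.63, level 1.97), Setdb1 in control mouse 1 of day 4 (0.872, level 2.83), Kdm6a in control mouse 5 of day 9 (0.733, level 2.09) and Kdm6b in irradiated mouse 5 of day 25 (0.712, level 0.12).

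The change between irradiated and control mice differed between days in 7 members by limma's interaction test. The adjusted p was 0.000361 for Hdac9, 0.00433 for Kdm5c, 0.00594 for Setd8, 0.00794 for Chd3, 0.00917 for Smarce1, 0.044 for Kdm4b and 0.0488 for Kdm5b. With slide as a random block it was 0.0196 for Hdac9, 0.0442 for Setd8 and 0.0497 for Kdm5c, and the other 4 did not pass.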

How the results depend on the processing

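At days 4, 7, 9 and 25 the 75th percentile scaling gave 13, 4, 4 and 8 members lower and quantile normalization 15, 5, 10 and 10. Normexp gave 0 lower at every day and 0, 0 and 1 higher at days 4, 7 and 30, where the range of an array without its outer 5% at each end was 1.47 to 6.03 on the log2 scale against 8.71 to 10.6. An adjusted p under 0.05 gave 36, 30 and 37 lower at days 7, 9 and 30 and 2, 2, 1, 2 and 7 higher. Slide as a block gave 4, 0 and 5 lower at days 9, 25 and 30 and 0 higher at days 7 and 30, and scan day as a block 11 lower at day 30 and 0 higher at both days. For higher, the 75th percentile gave 2 at day 4 and 1 at day 25, and quantile normalization 1 at day 30. No filter on dim spots gave 1 at day 9 and 5 at day 30 (5.54% and 22.9% of all genes). The number lower at all 5 days was 1 with the 75th percentile or quantile normalization, 0 with normexp, 13 with the authors' values and 29 by adjusted p. Days differed in 13, 14 and 3 members with the 75th percentile, quantile normalization and slide as a random block. The shares of all genes were 21.3%, 21.7% and 5.58%, and the members' shares were near these. Control groups differed in 15 members with slide as a random block (32.3% of all genes). The labels do not say that replicate numbers pair the mice. Same-numbered mice deviated together, at a correlation over 0.1, in 3 of 4 pairs at day 4 and in 1, 0, 1 and 3 of 6 later. At day 4 all 4 controls correlated best with the irradiated mouse of their own number, and later 2, 0, 0 and 2 of 6 did. With the replicate number as a block 28, 15, 16, 26 and 24 members were lower (17.4%, 11%, 12.2%, 19% and 16.5% of all genes) and 7 at all 5 days. Leaving out each array gave 24 to 30, 10 to 24, 14 to 21, 22 to 28 and 19 to 27 lower, 1 to 1, 1 to 1, 0 to 0, 0 to 1 and 1 to 4 higher, 4 to 10 lower at all 5 days, 5 to 12 with a difference between days and 21 to 31 between control groups. The 4 higher at day 30 came without irradiated mouse 1. Among results called in the main setting or the alternative, the sign turned for Chd4 at day 25 with normexp (0.036). It also turned for Smarcc1 at day 30 with the authors' values (-0.582), which list another probe. Of 140 single results 92, 99 and 50 kept their call or lack of one with the 75th percentile, quantile normalization and normexp. Of these, 6, 3 and 5 were called in neither setting and changed sign. Why they differ was not tested.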
